A study of Mus musculus with 6 samples.

Results

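The core subunits of the 2 Polycomb repressive complexes were followed in RNA from T-ALL (T-cell acute lymphoblastic leukaemia) of the mouse with and without induced deletion of the PHD finger gene Phf6. The set held the 10 genes Ezh2, Ezh1, Eed, Suz12, Jarid2, Bmi1, Pcgf2, Pcgf6, Ring1 and Rnf2, taken by gene symbol from the 23306 rows with a gene identifier in the count table. Each symbol matched 1 row, and all 10 genes passed the filter on low values. PolyA RNA had been sequenced from tumour cells harvested from bone marrow, in 3 Phf6 wild-type and 3 Phf6 knockout samples, all from isogenic leukaemia on the C57BL/6 strain. Deletion of Phf6 was induced with a Cre recombinase that tamoxifen switches on, and corn oil was the vehicle, given like the drug into the peritoneum. Drug exposure and gene loss therefore cannot be told apart from the labels. The labels give neither the promoter that drives Cre, nor the mice's age, nor how many animals gave the samples. What the p-values measure is thus the spread between these 6 samples, which may be technical.

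Polycomb proteins keep genes silent by marking chromatin. Polycomb repressive complex 2 (PRC2) methylates lysine 27 of histone H3 through EZH2 or its paralog EZH1, which work only when bound to EED and SUZ12, and JARID2 is an accessory subunit that helps PRC2 to bind chromatin. Polycomb repressive complex 1 (PRC1) places ubiquitin on histone H2A through RING1 or RNF2 (RING1B), each paired with a PCGF protein: BMI1 (PCGF4) and PCGF2 (MEL18) form the canonical complexes, and PCGF6 forms a variant complex that also holds the DNA-binding proteins MGA, MAX and E2F6. Loss-of-function mutations of PRC2 genes recur in human T-ALL, where the complex acts against the NOTCH1 programme.

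The libraries held between 46067511 and 54953145 reads assigned to genes. Values are normalised read counts, meaning reads divided by the authors' size factor for the library. Phf6 was lower in all 3 knockout libraries (1781, 2337 and 1755) than in the 3 wild-type libraries (5508, 4240 and 5075). The knockout mean was 0.396 of the wild-type mean, and the source of the remaining reads was not tested. Of 24 listed T-lineage markers 23 were in the table, and their sum made up 0.850% to 1.01% of all normalised reads. Marker sums of neutrophils were 0.0156% to 0.0560% of reads in wild type and 0.133% to 0.168% in knockout, those of macrophages and monocytes 0.00606% to 0.0128% and 0.0198% to 0.0328%, and those of B cells 0.000741% to 0.000947% and 0.0016% to 0.00269%. Stromal and endothelial markers held 0.0506% to 0.0604% and 0.0692% to 0.0891%, and erythroid markers 0.000788% to 0.00138% and 0.00099% to 0.00231%. Most of the stromal and endothelial sum was Col1a2, with means of 20797 of 28830 normalised reads in wild type and 29110 of 37700 in knockout. The related collagen gene Col1a1 went the other way, with means of 117 and 51.1. This sum should therefore not be read as stromal content. The macrophage and monocyte sum is also mixed. Lyz2 alone had means of 1466 of 4525 normalised reads in wild type and 5336 of 12790 in knockout. C1qa, C1qb and C1qc of this list did not pass and overlapped between the groups, whereas Csf1r and Cd68 rose. Its sum should therefore not be read as macrophage content. Among the markers of all these cell types Ebf1, Ms4a1 and Col3a1 were at 0 in 1 wild-type library each and Rag2 in 2 knockout libraries. In tumour samples of this kind, fewer cells of a type and less RNA per cell cannot be told apart.

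Sequences before the RefSeq start sites of Ezh2 and Pcgf6, the 2 subunits that changed, are shown with that of Ezh1, the paralog of Ezh2 that did not pass the test. The sequences are RefSeq's for GRCm38.p6, 5′ to 3′ on the gene's strand, limited to bases before the RefSeq start site that lie outside annotated exons. Capitals mark a CCAAT box (CCAAT on either strand) or a GC box (GGGCGG on either strand).
Ezh2: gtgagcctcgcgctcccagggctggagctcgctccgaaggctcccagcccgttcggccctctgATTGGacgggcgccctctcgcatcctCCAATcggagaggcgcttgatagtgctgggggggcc
Pcgf6: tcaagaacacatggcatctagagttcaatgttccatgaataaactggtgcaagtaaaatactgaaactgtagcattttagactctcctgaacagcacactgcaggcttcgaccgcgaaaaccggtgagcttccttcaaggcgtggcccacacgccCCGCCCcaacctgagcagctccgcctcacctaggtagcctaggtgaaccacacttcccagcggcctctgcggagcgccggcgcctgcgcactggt
Ezh1: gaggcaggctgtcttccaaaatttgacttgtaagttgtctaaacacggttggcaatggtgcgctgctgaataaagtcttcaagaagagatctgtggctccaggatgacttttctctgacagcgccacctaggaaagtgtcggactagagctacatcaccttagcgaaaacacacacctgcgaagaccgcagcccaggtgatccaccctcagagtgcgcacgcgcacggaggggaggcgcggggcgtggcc

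These lie on the minus strand at chr6:47595059-47595183 (Ezh2, 125 bases), chr19:47050907-47051156 (Pcgf6, 250 bases) and chr11:101226464-101226713 (Ezh1, 250 bases). The GENCODE gene of Ezh2 begins 311 bases before the RefSeq start site, so the stretch shown for Ezh2 lies within the annotated gene, between exons, whereas those of Pcgf6 and Ezh1 lie before the annotated genes. Within the 250 bases before its start site Ezh2 had 3 CCAAT boxes, with their first bases 90, 64 and 11 bases before the start, and the last of these falls outside the stretch shown. A CCAAT box occurs in 33.8% of the 32851 windows of this length in the RefSeq table and a GC box in 32.7%. Pcgf6 had 1 GC box, 95 bases before the start, and Ezh1 had neither box. Members that did not pass the test had these boxes too: a GC box was found in Suz12, Jarid2, Bmi1, Pcgf2, Ring1 and Rnf2. A CCAAT box was found in Suz12 and Jarid2, while Eed had neither box and Ezh2 had no GC box. The E2F motif, searched as TTTCCCGC or TTTGGCGC on both strands, is in 1.30% of windows, and among the members it was found in Suz12, 219 bases before the start. The E-box CACGTG, bound by MYC and related factors, is in 6.02% of windows and was found in Bmi1 and Pcgf2. Windows existed for all 10 members, 2 of them for Jarid2. A match of letters shows no binding.

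Of the 10 subunits, Ezh2 and Pcgf6 fell in the knockout libraries and the other 8 did not pass the test. The background was that 8.75% of the 17993 genes tested were called in either direction and 3.43% fell (limma with Benjamini-Hochberg adjustment over all genes tested, threshold 0.05). Among the 9716 genes at least as abundant as the least abundant member, 5.49% fell. The members were chosen with earlier results of these data known, so these shares are a description only. The count of rises among the members was 0 with limma, edgeR and DESeq2, and at an unadjusted p under 0.05 it was 1, Pcgf2. At that unadjusted threshold 12.7% of all genes tested were higher and 12.5% lower, together 25.2%. The median log2 fold change of the members, -0.041, lay near that of all genes tested, -0.013. All 3 knockout values lay below all 3 wild-type values for Ezh2, Pcgf6 and Ring1, a pattern seen in 16.2% of the genes tested; the groups were separate in either direction in 31.2%. Log2 fold changes here are knockout over wild type on the log2(value + 2) scale.

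**Figure D1:**
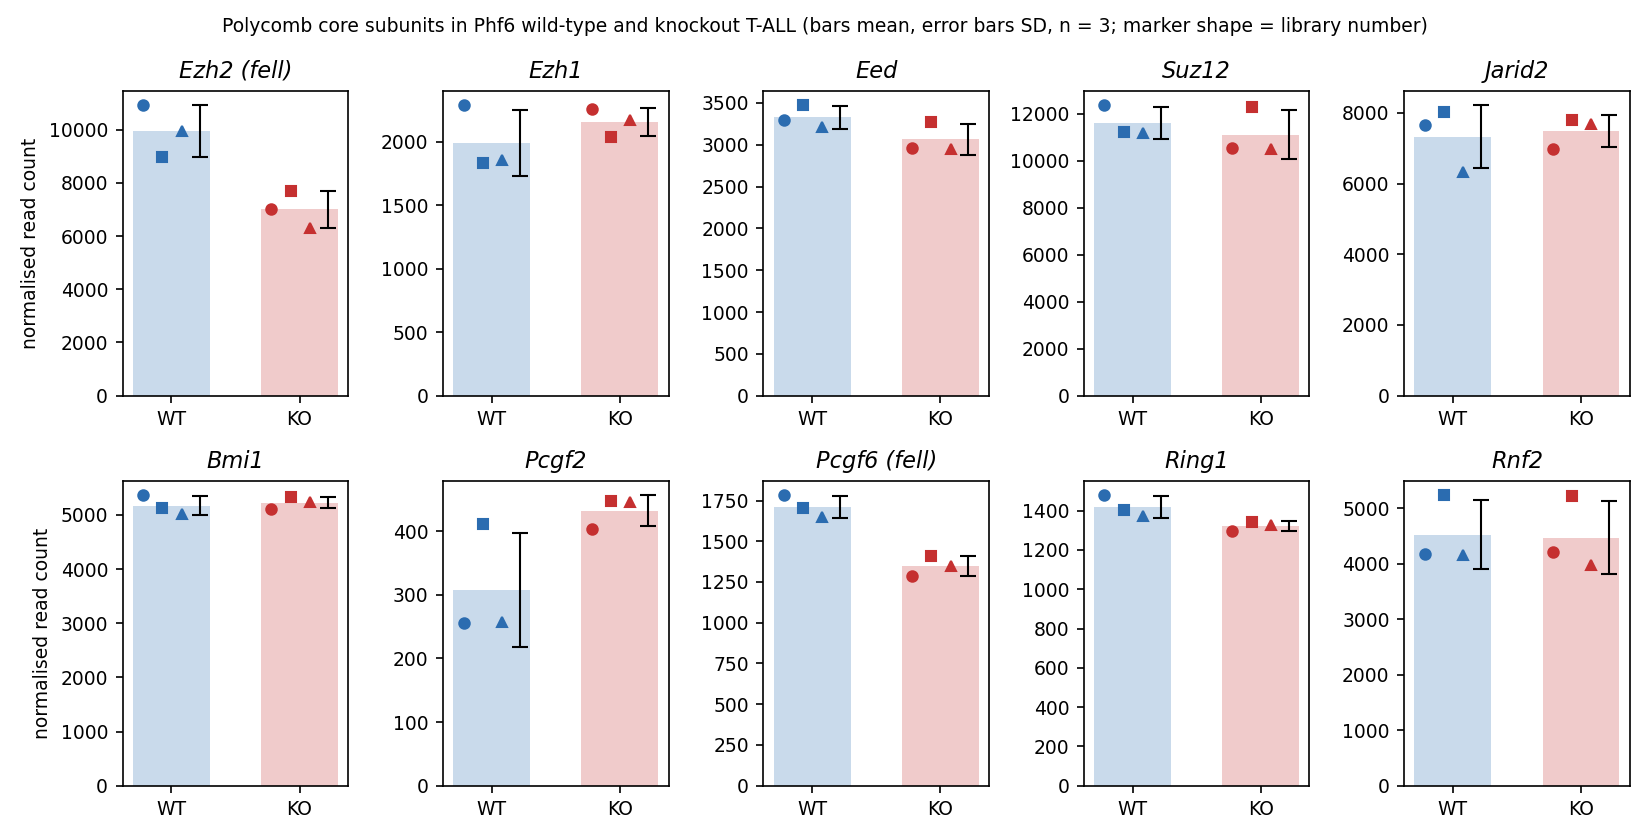
Normalised read count (y axis, from 0) of each of the 10 subunits in Phf6 wild-type (WT, blue) and knockout (KO, red) libraries. Bars are means, error bars the SD (n = 3) and marker shapes the library number; Ezh2 and Pcgf6 show 3 knockout points below all wild-type points, while Pcgf2 has 1 wild-type library, number 2, at the level of the knockouts.

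The methyltransferase gene Ezh2 had the largest fall of the set. Ezh2 (ENSMUSG00000029687; GRCm38 chromosome 6, 47530139 to 47595341, minus strand, protein coding) had 10927, 8976 and 9945 normalised reads in wild type and 7026, 7681 and 6309 in knockout, here and below in the order of the library numbers. The groups did not overlap, and the nearest libraries were number 2 of each. Group means of 9949 ± 975 and 7005 ± 686 (SD, n = 3 each) gave a ratio of 0.704. The log2 fold change was -0.51 with an SE of 0.10 (limma adjusted p = 0.0174). The call was lost without wild-type library 1 (-0.44; limma adjusted p = 0.0821), without number 3 of the wild type (-0.50; 0.0562) or of the knockout (-0.43; 0.0850), and with all libraries but without limma's trend and robust options (adjusted p = 0.0843). Without both number-2 libraries the change was -0.65 (limma adjusted p = 0.00262). Over all alternatives the adjusted p ran from 0.000737 (DESeq2) to 0.0850. A lincRNA gene, Gm26625, and a processed pseudogene, Gm44282, lie on the opposite strand within Ezh2, and the strand setting of the counting is not given in the sources used here.

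Ezh1, whose product has weaker methyltransferase activity and is typical of resting cells, did not pass the test. Ezh1 (ENSMUSG00000006920; chromosome 11, 101191115 to 101226463, minus strand) had counts of 2289, 1831 and 1854 in wild type and 2261, 2039 and 2171 in knockout. Wild-type library 1 was the highest of all 6 and the groups overlapped. The log2 fold change was 0.12 ± 0.11 (SE; limma adjusted p = 0.519), with an unadjusted 95% interval from -0.11 to 0.36. The interval of Ezh2 was -0.73 to -0.28, and a difference in response between the 2 genes was not tested. Per kilobase of merged exons, the ratio of Ezh2 to Ezh1 was 5.32, 5.46 and 5.98 in wild type and 3.46, 4.20 and 3.24 in knockout. With this length Ezh1 made up 14.3% to 15.8% of the summed Ezh1 and Ezh2 level in wild type and 19.2% to 23.6% in knockout. The share depends on the length used. Per kilobase of the longest principal transcript, the ratio of Ezh2 to Ezh1 was 7.18 to 8.07 in wild type and 4.37 to 5.67 in knockout. The ranges of the 2 groups did not overlap with either length, and no test of this ratio was run.

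The other PRC2 subunits did not pass the test. Eed (ENSMUSG00000030619; chromosome 7, 89954654 to 89980983, minus strand), whose product binds the methylated lysine and stimulates the enzyme, had counts of 3293, 3474 and 3211 in wild type and 2964, 3274 and 2953 in knockout. Its log2 fold change was -0.12 ± 0.08 (limma adjusted p = 0.406; 95% interval -0.30 to 0.064), and only knockout library 2 reached the wild-type range. Suz12 (ENSMUSG00000017548; chromosome 11, 79993106 to 80034123, plus strand), which holds the complex together, had 12361, 11214 and 11172 reads in wild type and 10552, 12287 and 10482 in knockout. Knockout library 2 again lay within the wild-type range and the other 2 below it. The log2 fold change was -0.063 ± 0.090 (limma adjusted p = 0.716; interval -0.26 to 0.14), and it was 0.021 with library totals as the scaling. Jarid2 (ENSMUSG00000038518; chromosome 13, 44729474 to 44921643, plus strand) had 7647, 8017 and 6320 reads in wild type and 6977, 7811 and 7676 in knockout, with groups that overlapped fully. Its log2 fold change was 0.037 ± 0.10 (limma adjusted p = 0.858; interval -0.19 to 0.26), and it was -0.066 without wild-type library 3. Eed and Suz12 overlap noncoding genes on the opposite strand and Jarid2 a small nucleolar RNA gene. Eed also overlaps the annotated gene Gm45120 on its own strand.

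**Figure D2:**
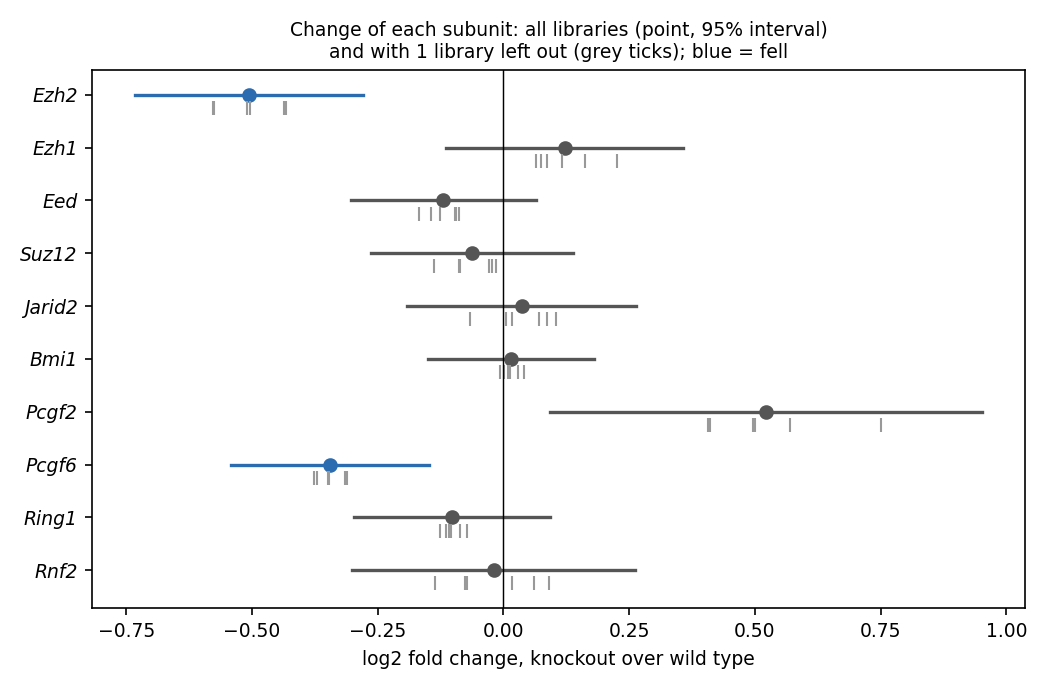
Log2 fold change of each subunit, knockout over wild type (x axis), with its unadjusted 95% interval; blue marks the genes that fell and grey ticks the values with 1 library left out. Ezh2 (-0.51) and Pcgf6 (-0.34) lie left of 0 in every case, Pcgf2 (0.52) lies right of 0 with a wide interval, and the intervals of the other 7 span 0.

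Among the PCGF subunits of PRC1, which decide the type of complex, each of the 3 genes had its own pattern. Pcgf6 (ENSMUSG00000025050; chromosome 19, 47033617 to 47050906, minus strand) had 1784, 1705 and 1650 reads in wild type and 1286, 1409 and 1350 in knockout. No library of one group reached the other. Its mean was 1713 ± 67.1 in wild type and 1349 ± 61.6 in knockout (SD, n = 3 each), a ratio of 0.787. The log2 fold change was -0.34 with an SE of 0.09 (limma adjusted p = 0.0401). This call is near the threshold: it was lost when any 1 of the 6 libraries was left out (limma adjusted p = 0.0569 to 0.172, with log2 fold changes from -0.38 to -0.31), with upper-quartile scaling (adjusted p = 0.0570), with library totals (-0.26; adjusted p = 0.0924) and without limma's trend and robust options (adjusted p = 0.0932). It remained in edgeR (adjusted p = 0.0438) and DESeq2 (adjusted p = 0.0150).

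Bmi1, the PCGF subunit that sustains self-renewal of blood stem cells and represses the Cdkn2a locus, was the steadiest member. Bmi1 (ENSMUSG00000026739; chromosome 2, 18677018 to 18686629, plus strand) had 5367, 5130 and 5022 reads in wild type and 5117, 5323 and 5235 in knockout. All 6 values lay within 5022 to 5367, and the log2 fold change was 0.015 ± 0.074 (limma adjusted p = 0.924; 95% interval -0.15 to 0.18).

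Pcgf2, the paralog of Bmi1, had the largest positive value of the set and was also its least abundant gene. Pcgf2 (ENSMUSG00000018537; chromosome 11, 97688823 to 97700497, minus strand) had 255, 412 and 257 reads in wild type and 404, 448 and 445 in knockout. Wild-type libraries 1 and 3 lay well below the knockouts, while wild-type library 2 lay among them. The log2 fold change was 0.52 ± 0.19 (SE; limma adjusted p = 0.124; 95% interval 0.09 to 0.95), which did not pass. Without wild-type library 2 it was 0.75 (limma adjusted p = 0.0120), and without both number-2 libraries 0.72 (limma adjusted p = 0.0186). Wild-type library 2 was also the wild-type library with the highest neutrophil marker sum, 0.0560% of reads against 0.0156% and 0.0255%; the part of such cells in the Pcgf2 values was not tested. The ratio of Bmi1 to Pcgf2 per kilobase was 18.7, 11.1 and 17.4 in wild type and 11.2, 10.6 and 10.4 in knockout, so that the groups overlapped through wild-type library 2 alone.

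The ubiquitin ligase subunits showed no change that passed the test. Ring1 (ENSMUSG00000024325; chromosome 17, 34020792 to 34024680, minus strand) had 1479, 1405 and 1372 reads in wild type and 1295, 1344 and 1326 in knockout. The knockout values lay below every wild-type value, but by little: the log2 fold change was -0.10 ± 0.09 (limma adjusted p = 0.509; 95% interval -0.30 to 0.09). Rnf2 (ENSMUSG00000026484; chromosome 1, 151458004 to 151500955, minus strand), the main H2A ubiquitin ligase of most cells, had 4182, 5239 and 4156 reads in wild type and 4221, 5217 and 3970 in knockout. The number-2 libraries of both groups stood about equally above the rest. The log2 fold change was -0.020 ± 0.13 (limma adjusted p = 0.941; interval -0.30 to 0.26), and its sign turned with upper-quartile scaling (0.016), with library totals (0.064) and in edgeR (0.0011). Rnf2 overlaps the protein-coding gene Trmt1l on the opposite strand and the annotated gene Gm36527 on its own strand, so its reads may hold reads of these genes. The ratio of Rnf2 to Ring1 per kilobase ranged from 2.22 to 2.93 in wild type and from 2.35 to 3.05 in knockout.

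**Figure D3:**
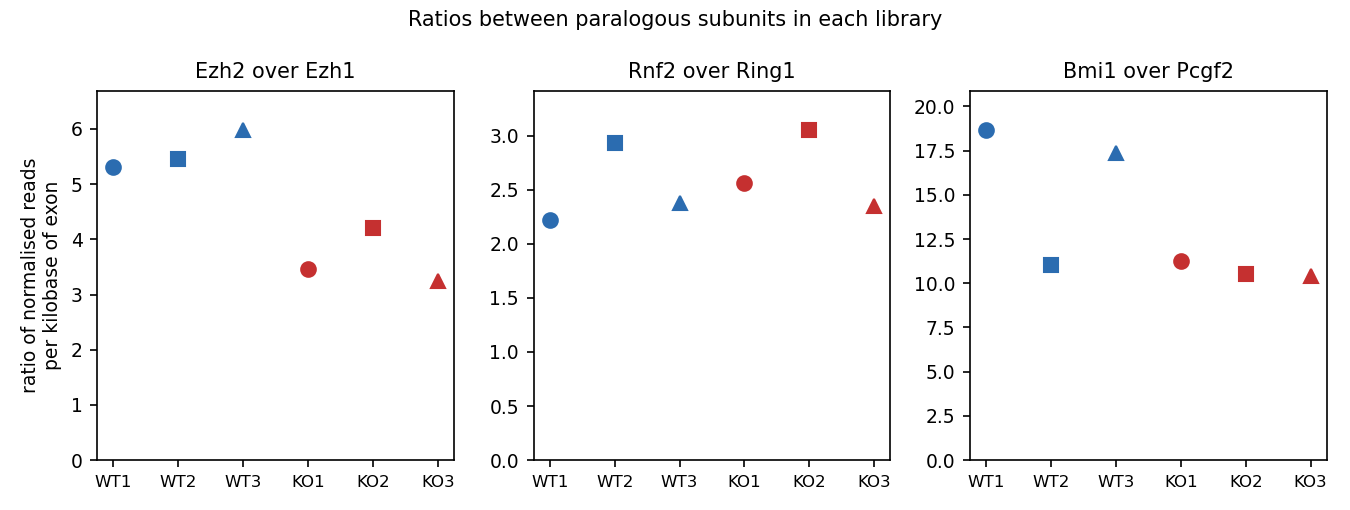
Ratio of normalised reads per kilobase of merged exons (y axis, from 0) between paralogous subunits in each library (x axis; WT blue, KO red, marker shape the library number). Ezh2 over Ezh1 lies between 5.32 and 5.98 in wild type and between 3.24 and 4.20 in knockout, whereas the groups overlap for Rnf2 over Ring1 and for Bmi1 over Pcgf2.

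Levels differed more between subunits than between genotypes. In wild type, normalised reads per kilobase of merged exons were highest for Suz12 (2342 ± 136, SD, n = 3), then Ezh2 (1490 ± 146), Bmi1 (1302 ± 44.4), Rnf2 (1097 ± 150), Eed (869 ± 35.2) and Jarid2 (754 ± 91.9). Ring1 (438 ± 17.0), Pcgf6 (341 ± 13.4), Ezh1 (268 ± 34.7) and Pcgf2 (87.3 ± 25.5) made up the lower end. Libraries of neighbours in this order overlapped for Ezh2 with Bmi1 and for Bmi1 with Rnf2. In knockout Ezh2, at 1049 ± 103, stood behind Suz12 (2246 ± 207), Bmi1 (1315 ± 26.1) and Rnf2 (1083 ± 160), and its libraries overlapped those of Rnf2. Pcgf6 (268 ± 12.3) stood behind Ezh1 (290 ± 14.99) in knockout, and their libraries overlapped. The order depends on the length used: per kilobase of the longest principal transcript, Ezh2 was first in wild type (3570 ± 350, against 2649 ± 154 for Suz12) and second in knockout (2514 ± 246, against 2540 ± 234).

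Calls among the other Polycomb subunits were few. Of 9 tested PRC2 accessory genes 0 were called by limma, edgeR or DESeq2, and at an unadjusted p under 0.05 1 was higher and 2 were lower. Both counts are near the background of 8.75% called and 25.2% at that unadjusted p over all genes tested. The histone chaperone gene Rbbp7 was lower in every knockout library (13932, 12653 and 13032 against 11150, 12152 and 10187; log2 fold change -0.24; limma adjusted p = 0.117), and Rbbp4 had a log2 fold change of -0.28 (limma adjusted p = 0.157). Phf19, a Polycomb-like protein that recruits PRC2, was higher in every knockout library (962, 988 and 905 against 1198, 1189 and 1056; 0.27; limma adjusted p = 0.128), and Lcor was at -0.24. The median over the 9 was -0.033. Of 10 canonical PRC1 genes (the CBX proteins that read the methyl mark, the PHC proteins and SCM relatives) 0 were called by the same 3 tools and 0 had an unadjusted p under 0.05 in limma, beside the same 8.75% and 25.2% of all genes, with Phc1 at 0.16, Cbx6 at -0.17, Cbx7 at 0.17 and Scml4 at -0.20 and a median of -0.013.

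Variant PRC1 genes, which include the partners of PCGF6, had 1 fall. Of 25 tested, Csnk2b, the regulatory subunit of casein kinase 2, fell from 6215, 6610 and 6365 reads to 5361, 5278 and 4621 (log2 fold change -0.33 ± 0.08; limma adjusted p = 0.0387), and 24 did not pass. This call was lost when any 1 of the 6 libraries was left out (limma adjusted p = 0.0568 to 0.127), with library totals (adjusted p = 0.0788) and without limma's trend and robust options (adjusted p = 0.123). The median was -0.14, 6 of the 25 were above 0, and 7 were lower and 0 higher at an unadjusted p under 0.05, beside 12.5% and 12.7% of all genes tested and 25.2% in either direction. Next by p were Bcorl1 (-0.45), the CpG-binding recruiter gene Kdm2b (-0.31) and the histone deacetylase gene Hdac2 (-0.26), with limma adjusted p of 0.0566, 0.0653 and 0.0681 and groups that did not overlap. DESeq2 called 2 of the 25 as lower and edgeR 1. Among 14 enzymes and cofactors that remove Polycomb marks, the Y-linked demethylase relative Uty fell (1677, 1351 and 1605 against 1087, 1156 and 1146; -0.44 ± 0.11; limma adjusted p = 0.0308) and 13 did not pass, with Foxk2 at -0.17, Hcfc1 at -0.18 and Mysm1 at 0.17. The Uty call held without wild-type library 2 and was lost without any other library (limma adjusted p = 0.0593 to 0.144), with upper-quartile scaling (adjusted p = 0.0517), with library totals (adjusted p = 0.0741) and without limma's trend and robust options (adjusted p = 0.0916). These calls, 1 of 25 and 1 of 14, stand beside the 8.75% of all genes tested. These lists too were chosen with earlier results of these data known, so the shares are a description only.

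**Figure D4:**
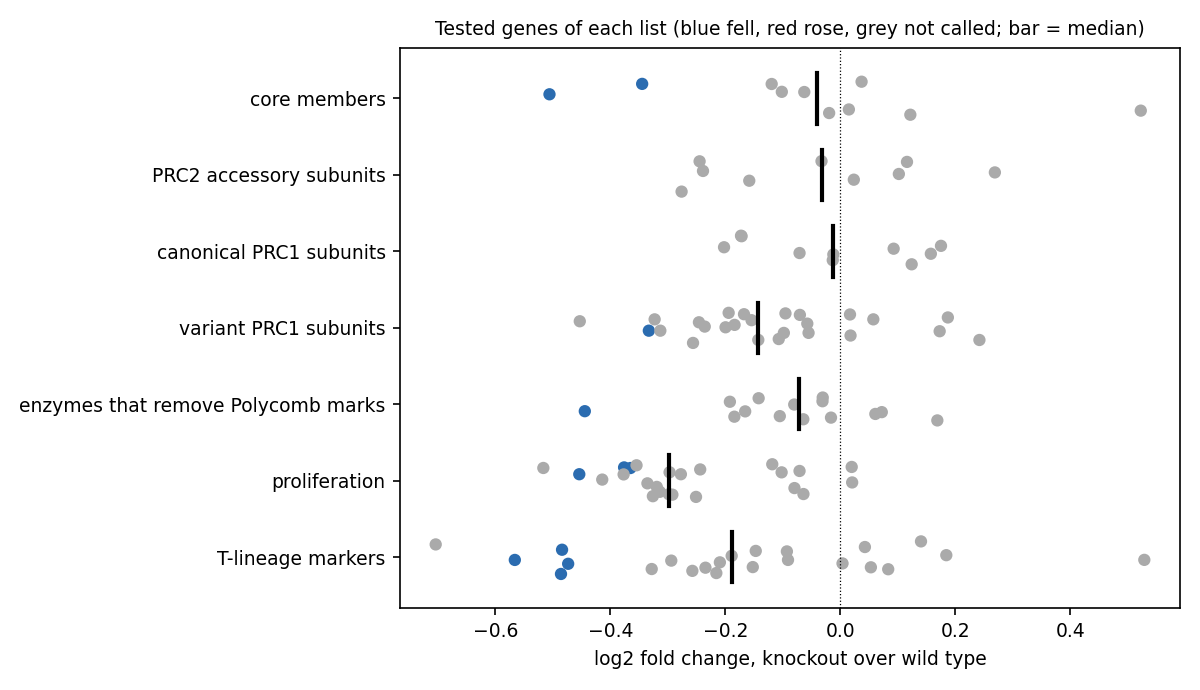
Log2 fold changes, knockout over wild type (x axis), of the tested genes of each list, 1 point per gene (blue fell, grey not called), with the list median as a bar. Medians are -0.041 for the 10 core members, -0.14 for variant PRC1 genes, -0.30 for proliferation genes and -0.19 for T-lineage markers.

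By profile over the 6 libraries, the genes nearest to each member were found among 67 others of these Polycomb lists, using the root mean square difference of log2 values after each gene was centred on its mean. Ezh2 was nearest to Uty (0.095), Pcgf6 to Hdac2 (0.069) and Pcgf2 to Fbrsl1 (0.163). Eed was nearest to Csnk2a2 (0.034), Suz12 and Ring1 both to Usp7 (0.058 and 0.026), and Bmi1 to Aebp2 (0.021). Ezh1 was nearest to Asxl1 (0.104), Jarid2 to Fbrs (0.068) and Rnf2 to Bap1 (0.073). By the same measure a flat profile lay at 0.278 from Ezh2, 0.180 from Pcgf6, 0.128 from Ezh1, 0.094 from Suz12 and 0.0335 from Bmi1. For genes that varied little, such as Ezh1 and Bmi1, a small distance is therefore no sign of a shared profile. No member had another member as its nearest gene.

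Some Polycomb genes had their highest value of each genotype in library 2, a pattern picked out after the values were seen. It held for 22 of the 68 tested genes of the 5 Polycomb lists (32.4%) and for 20.9% of all genes tested, while library 2 was the lowest of both genotypes in 5 of the 68 (7.35%) and in 18.7% of all genes. These shares were not tested. Among the 10 core subunits 4 had library 2 highest in both genotypes: Eed, Jarid2, Pcgf2 and Rnf2. Of the other genes with the pattern, 3 are given as examples. Rybp, which stimulates variant PRC1, had 1719, 2857 and 1322 reads in wild type and 1434, 3311 and 1415 in knockout. Cbx8 had 925, 1368 and 611 against 687, 1360 and 804, and the H3K27 demethylase gene Kdm6b 11113, 16841 and 9640 against 8033, 16344 and 9212. Their log2 fold changes between genotypes were 0.017, -0.013 and -0.19, none of which passed.

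Some replication genes were lower in the same libraries as Ezh2, whose expression is tied to the cell cycle in many cells. Of 24 proliferation genes, the replicative helicase genes Mcm2 (-0.45), Mcm5 (-0.37) and Mcm6 (-0.38) fell and 21 did not pass, among them Mcm7 (-0.29); the median was -0.30 and 13 were lower at an unadjusted p under 0.05. Over all genes tested 3.43% fell and 12.5% were lower at that unadjusted p. The proliferation list too was chosen with earlier results of these data known, so these shares are a description only. All 3 helicase calls were lost without wild-type library 1, wild-type library 3 or knockout library 3 (limma adjusted p = 0.0802 to 0.163) and without limma's trend and robust options (adjusted p = 0.0931 to 0.124). Mcm5 and Mcm6 also lost theirs without knockout library 1 (limma adjusted p = 0.0781 and 0.0802) and with library totals (0.0631 and 0.0688). The proliferation sum was 0.471% to 0.551% of reads in wild type and 0.406% to 0.470% in knockout. As a share of that sum, a scale chosen after seeing the data, Ezh2 was 3.89%, 3.70% and 3.73% in wild type and 3.21%, 3.34% and 3.33% in knockout, so the groups stayed apart on this scale. Pcgf6 was 0.619% to 0.703% of the sum in wild type and 0.587% to 0.713% in knockout, where the groups overlapped. As a share of the T-lineage marker sum, Ezh2 was 2.22%, 1.84% and 1.99% in wild type and 1.51%, 1.85% and 1.51% in knockout, with an overlap through number 2 of both groups. Of those 23 T-lineage markers 4 fell (Cd247 at -0.57, Cd5 and Tcf7 at -0.48 and -0.49, Cd6 at -0.47) and 19 did not pass. The median of the 23 was -0.19, and 7 of them were above 0. Cd247 kept its call when any 1 library was left out. Cd5, Tcf7 and Cd6 lost theirs without wild-type library 1, wild-type library 3 or knockout library 3 and without limma's trend and robust options. Cd5 and Cd6 also lost theirs without knockout library 2 (limma adjusted p = 0.05001 and 0.0546), and Cd6 with library totals (0.0523). The part of proliferation or of cell mixture in the Ezh2 value was not tested.

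Genes that Polycomb is known to silence in embryonic or adult cells were mostly too scarce to test. Of 73 listed, 23 were in the table and 13 had enough reads. Of these, 4 reached the minimum of 10 in all 3 knockout libraries but not in all wild-type libraries (Hoxa9, Pax5 and Pax8 in 0 wild-type libraries, Hoxd8 in 1). They were tested because they were high in knockout, so their values are given as a description with no call. Of the other 9, 2 rose, 1 fell and 6 did not pass, where 5.32% of all genes tested rose and 3.43% fell. Binding of Polycomb proteins was not measured here, and the list was written with the changes of several of its genes known. Igf2bp3, which encodes an oncofetal RNA-binding protein, rose from 590, 610 and 654 reads to 1850, 1666 and 1461 (log2 fold change 1.42 ± 0.11; limma adjusted p = 0.001185), and Cdkn1c, a CDK inhibitor gene, from 119, 120 and 92.2 to 210, 185 and 155 (0.72 ± 0.20; limma adjusted p = 0.0486). In both, all 3 knockout values lay above the wild-type values. Igf2bp3 passed in all 18 alternatives, and Cdkn1c lost its call without any 1 library but wild-type library 2 (limma adjusted p = 0.0864 to 0.183), without both number-2 libraries (0.0642), with no filter on low values and without limma's trend and robust options (0.0708). Pax7 fell from 62.1, 83.9 and 111 to 28.2, 11.4 and 13.04, a call lost without knockout library 3 (limma adjusted p = 0.0577). Among the 4 genes given without a call, Hoxa9 had 3.003, 1.98 and 0 reads in wild type and 35.5, 34.3 and 30.1 in knockout. Hoxd8 had 5.005, 7.90 and 10.8 against 35.5, 48.8 and 27.1, Pax5 6.01, 3.95 and 4.52 against 22.95, 58.2 and 56.2, and Pax8 3.003, 3.95 and 0.904 against 12.5, 18.7 and 10.03. Pax5 is also a B-cell marker. Of 13 tested B-cell markers, 6 likewise reached the minimum in all knockout but not in all wild-type libraries, and of the other 7, 4 rose, beside 5.32% of all genes tested. The cell-cycle inhibitor genes of the classical Bmi1 target locus did not pass: Cdkn2a had 154, 250 and 233 reads against 250, 187 and 147 (-0.13; limma adjusted p = 0.796), and Cdkn2b 33.03, 197 and 28.0 against 70.9, 177 and 71.2, with both number-2 libraries high.

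**Figure D5:**
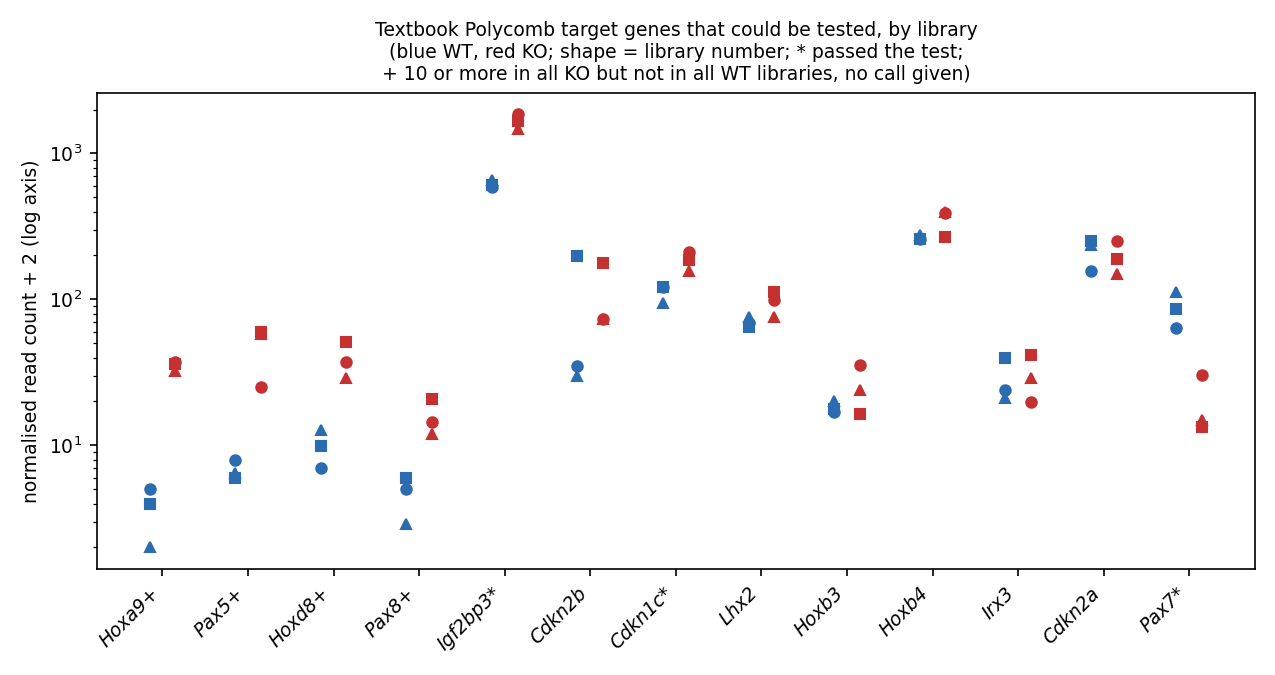
Normalised read count plus 2 on a log axis for the 13 textbook Polycomb target genes that could be tested, by library (WT blue, KO red, marker shape the library number; asterisks mark genes that passed the test and plus signs the 4 genes with 10 or more in all knockout but not all wild-type libraries, for which no call is given). Igf2bp3 lies at 590 to 654 in wild type and 1461 to 1850 in knockout, Pax7 is the single called gene that is lower in knockout, and Cdkn2a overlaps between the groups.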

How the data were processed

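The deposited values are a signal: the authors scaled each library's gene counts by a single size factor. Values divided by each library's smallest step gave whole reads for 100% of values within a tolerance of 0.01. The submitters' processing notes name GRCm38, STAR 2.6.0a, bcl2fastq 1.8.4, DESeq2 and featureCounts; for strand setting and annotation the sources used here give no entry. Of 23314 rows, 8 without a gene identifier (at most 0.00106% of a library's reads) were left out. Library totals, 46067511 to 54953145 reads, limit counting error only.

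The main test was limma 3.58.1 (R 4.3.3; trend and robust options) on log2(value + 2) for genes at 10 or more in 3 or more libraries, with group as the only term and Benjamini-Hochberg adjustment. It was tested on simulated counts. Alternatives used edgeR 4.0.16 and DESeq2 1.42.0 on the recovered reads, other scalings, filters, pseudocounts and thresholds, a replicate block, and libraries left out. Gene positions and exon lengths came from GENCODE M21 (GRCm38), which held 23277 of the 23306 identifiers. Figures used Python 3.11.15 and matplotlib 3.10.9.

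Members and lists were chosen with earlier results of these data known. Named genes were the members, Phf6 and, of each other list, up to 4 with the smallest p and up to 8 called genes; Rybp, Cbx8, Kdm6b, Cdkn2a and Cdkn2b were added after their values were seen. For cell markers only sums, counts, the genes at 0, Col1a1, Col1a2, Lyz2, C1qa, C1qb, C1qc, Csf1r, Cd68 and the named T-lineage genes are reported. Neutrophil markers had 11 rises among 24 tested (edgeR 7, DESeq2 22). Macrophage and monocyte markers had 7 among 19 (edgeR 7, DESeq2 10), and 1 of the 7 had the minimum in all knockout but not all wild-type libraries. Stromal and endothelial markers had 1 rise and 1 fall among 7. Erythroid markers had 0 calls among 12 in limma, 1 in DESeq2 and 0 in edgeR, and limma gave 1 at an unadjusted p under 0.05. Over all genes tested 5.32% rose.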

Additional observations from a re-analysis of the deposited data

How the results depend on the processing

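The count of called members, 2 with all libraries, was 1 (Ezh2) with upper-quartile scaling and with library totals, 0 without limma's trend and robust options and 0 at an adjusted p threshold of 0.01, and it ran from 0 to 2 when 1 library was left out. Without wild-type library 2 the 2 called were Ezh2, which fell, and Pcgf2, which rose. Without both number-2 libraries 3 were called: Ezh2 and Pcgf6 fell and Pcgf2 rose. The count of called genes, 1575, was 652 without the trend and robust options, 2705 at a threshold of 0.1 and 363 at 0.01, and 253 to 1941 with 1 library left out; it was 465 without wild-type library 1, 665 without wild-type library 3, 986 without knockout library 2 and 253 without knockout library 3. Rises and falls were 957 and 618, and 1217 and 300 with library totals. The median log2 fold change of the genes tested was -0.013 in the main fit and 0.069 with library totals. The cause was not tested. Ezh2 and Pcgf6 were negative and Pcgf2 positive in all 18 alternatives. Values near 0 turned sign: Suz12 to 0.021 and Rnf2 to 0.064 with library totals, Rnf2 to 0.016 with upper-quartile scaling, to 0.0011 in edgeR, and to 0.090, 0.017 and 0.061 without wild-type library 2, knockout library 1 and knockout library 3, Jarid2 to -0.066 and Bmi1 to -0.0064 without wild-type library 3, and Bmi1 to -0.0045 without both number-2 libraries. With 1 library left out, Jarid2 ran from -0.066 to 0.105, Bmi1 from -0.0064 to 0.042 and Rnf2 from -0.136 to 0.090. Labels share replicate numbers across groups. Deviations of same-numbered libraries correlated at 0.012, 0.50 and 0.143, and those of other numbers at -0.477 to 0.381. The numbers were not taken to pair the libraries, although 0.50, for number 2, was the highest value. With a replicate block 2568 genes were called and the same 2 members, Ezh2 and Pcgf6. The same alternatives for called genes outside the 10 members were added after seeing the data.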
